A study of Mus musculus with 112 samples.

Results

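Primary skin carcinomas labelled spindle were compared between HrasKO mice, in which the Hras gene is knocked out, and wild-type (WT) mice. The comparison holds 12 of the 112 arrays of the series: 5 arrays from 4 HrasKO mice (1407, 1509, 1537 and 1664) and 7 arrays from 6 WT mice (1383, 1508, 1815, 1949, 1984 and 2022). Members were taken by the tumour type, histology and genotype given in the sample labels, with no measured value used. The series profiled dorsal skin, papillomas, primary carcinomas and metastases of 15 male mice, 6 of them HrasKO and 9 WT. All mice of both genotypes were offspring of a backcross, (Mus spretus x FVB) F1 animals crossed to FVB, so each one carried its own set of Mus spretus segments. Both genotypes were treated alike, with 1 application of the mutagen DMBA in week 8 of life followed by the tumour promoter TPA 2 times per week, and a primary tumour was taken out once it was over 1 cm. No carcinoma of either genotype was therefore without DMBA and TPA exposure.

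In this multistage protocol, DMBA mutates keratinocytes and TPA drives their outgrowth into papillomas, some of which progress to squamous cell carcinoma (SCC) and further to spindle cell carcinoma, an elongated, fibroblast-like tumour that has lost most of its epithelial character. In wild-type mice the initiating mutation usually activates Hras itself. Ras proteins are membrane-bound switches that pass signals from growth factor receptors to the Raf-MEK-ERK kinases and to phosphoinositide 3-kinase, and their target genes include feedback inhibitors of the same route, such as the Sprouty and dual-specificity phosphatase genes. Setting the same histology side by side in both genotypes asks which transcripts differ in a late tumour that formed without Hras. The level of the targeted gene is not analysed here.

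Expression is given on the log2 scale after robust multi-array averaging (RMA), so a difference of 1 is a 2-fold change. Levels of different genes are not set against each other, since each has its own probes. Mouse 1664 gave 2 arrays, both of batch 2, and every other spindle carcinoma array belonged to batch 1. With batch as a covariate the genotype estimate therefore rested on 3 HrasKO and 6 WT mice, and the values of mouse 1664 are given beside it. WT mouse 1508 also gave 2 arrays, which were averaged. The title of 7 of the 12 arrays carries the code RegCA (2 HrasKO and 5 WT), whose meaning is not given in the sources used here. The labels do not say what fraction of each tumour was carcinoma cells, and in such bulk samples fewer cells of a type and less RNA per cell cannot be told apart.

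The spindle label was checked against epithelial and mesenchymal genes. Dsg3, a desmosomal cadherin of keratinocytes, was at 3.64 to 6.55 in the 5 HrasKO arrays, against 4.02 to 8.20 in 6 of the 7 WT arrays and 10.51 to 12.10 in the 10 WT arrays labelled SCC. Zeb1, a transcriptional repressor of epithelial genes, was at 10.42 to 10.53 in HrasKO arrays and at 9.90 to 10.72 in the same 6 WT arrays. Vim, the mesenchymal intermediate filament vimentin, was at 12.74 to 12.93 in HrasKO arrays. Its 7 WT spindle arrays at 11.74 to 12.85 and the WT SCC arrays at 11.18 to 12.72 overlapped. For Zeb1, all 5 HrasKO arrays and these 6 WT arrays lay above the WT SCC arrays, whose highest was 9.88, while Dsg3 was at intermediate levels of 7.78 and 8.20 in WT mice 1383 and 2022. Not all mesenchymal genes separated the histologies, since Twist2 had a median of 8.57 in HrasKO spindle, 8.63 in WT spindle and 8.69 in WT SCC arrays. The mean over the mesenchymal and matrix list had medians of 10.24, 9.97 and 10.2 in the same groups.

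The array of WT mouse 1949 went against its label. It held Dsg3 at 11.79, Epcam at 9.68, Krt5 at 12.46 and the epithelial splicing factor Esrp1 at 10.96, each within or above the range of the WT SCC arrays. Zeb1 was at 8.10 and the fibroblast-type receptor gene Pdgfra at 7.76, lower than in every other spindle array. Its correlation with the other 11 spindle arrays was 0.879 to 0.915, and its median correlation with the WT SCC arrays was 0.964, whereas that median was 0.893 to 0.928 for the other 11. On the first principal component, which held 33.6% of the variance, it lay at 125 and no other array lay above 11.4. Results that rest on it are given with and without it.

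**Figure D1:**
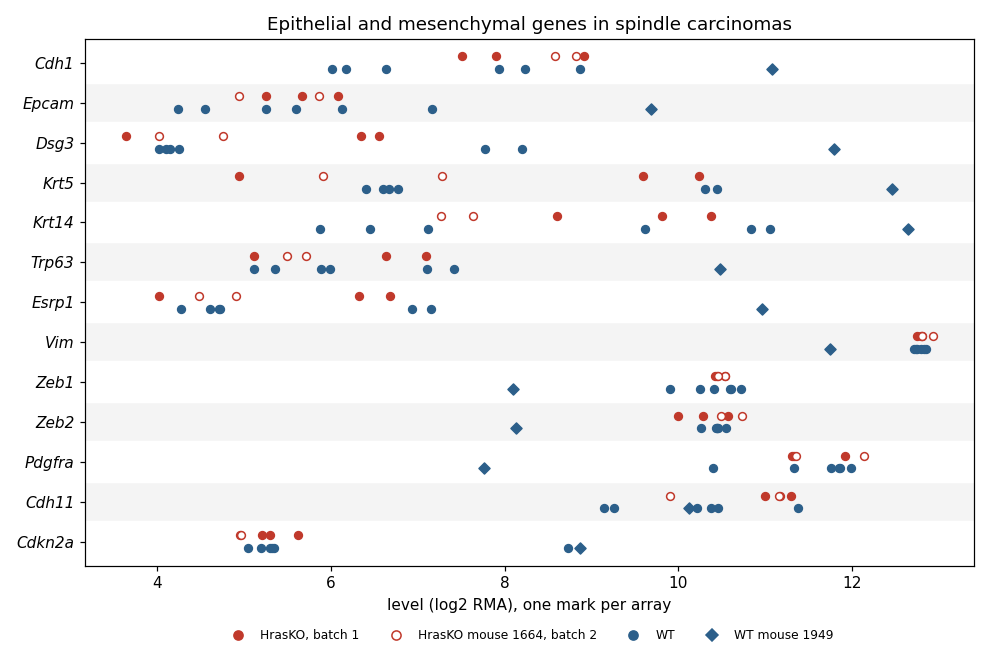
Levels (log2 RMA, horizontal axis) of 13 epithelial and mesenchymal genes in each spindle carcinoma array, with HrasKO arrays above WT arrays in each row. Open circles are both arrays of HrasKO mouse 1664, and the diamond is WT mouse 1949, which lay at 11.79 for Dsg3 while every other array lay at 8.20 or below.

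No gene passed the test of HrasKO against WT. Of 18772 genes, 0% were called at an adjusted p under 0.05 (limma, Benjamini-Hochberg), and the smallest adjusted p was 0.991. At an unadjusted p under 0.05, 498 genes (2.65%) were higher and 128 (0.682%) lower in HrasKO, 626 in all (3.33%). Without WT mouse 1949 these were 548 (2.92%) higher and 207 (1.1%) lower. The log2 difference had a median of 0.03 over all genes, with quartiles of -0.11 and 0.16, and a median standard error of 0.188. Differences beyond 1 on the log2 scale were estimated for 192 genes with HrasKO higher and 236 with HrasKO lower. The median correlation between arrays was 0.965 over 35 HrasKO-WT pairs, 0.969 over 9 pairs of different HrasKO mice and 0.961 over 20 pairs of different WT mice. Both arrays of mouse 1664 correlated at 0.951 and both of WT mouse 1508 at 0.977.

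Kcnab1 had the largest log2 difference of the 42 genes whose HrasKO arrays all lay above the WT arrays. The gene lies on chromosome 3 and encodes a cytoplasmic beta subunit of voltage-gated potassium channels, of the aldo-keto reductase fold, which changes the inactivation of the pore-forming subunits. Kcnab1 was at 9.12 in HrasKO mouse 1407, 7.23 in 1509, 7.90 in 1537, and 7.64 and 7.56 in the 2 arrays of 1664. In WT mice it was at 5.07 in 1383, 5.57 and 5.02 in 1508, 5.99 in 1815, 4.46 in 1949, 4.93 in 1984 and 5.65 in 2022. The lowest HrasKO array was above the highest WT array. The mean was 8.08 ± 0.962 in HrasKO mice of batch 1 (SD, n = 3) and 5.23 ± 0.542 in WT mice (SD, n = 6).

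The log2 difference of Kcnab1 was 2.85 (SE 0.438), with an adjusted p of 0.991 from limma over all genes, and 2.33 to 3.28 under the alternatives. Outside the joint fits described next, the smallest adjusted p of Kcnab1 was 0.36, without HrasKO mouse 1509. All tissues then entered one limma fit, so that the spread was estimated from every group and batch from every tissue. There the difference was 2.76 (SE 0.302) with an adjusted p of 2.43e-08. Kcnab1 was low in most of those groups, so this joint-fit SE and p do not measure the spread among HrasKO spindle carcinomas alone. That fit called 4 genes (0.0213% of 18772), all higher in HrasKO: Kcnab1, Lrrc56, F2rl3 and Rasl10a. Without the array of WT mouse 1949 it called 3 (0.016%), and the difference of Kcnab1 was 2.61 with an adjusted p of 2.97e-07.

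RefSeq lists 3 start sites for Kcnab1 on the plus strand of GRCm38.p6, and the gene-level value does not tell which was used. The 250 bases before each start are shown because Kcnab1 carries the clearest difference. Capitals mark the Ets core GGAAG or its reverse complement CTTCC, the sequence read by Ets factors downstream of ERK.

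Start 1, chr3:64948962-64949211: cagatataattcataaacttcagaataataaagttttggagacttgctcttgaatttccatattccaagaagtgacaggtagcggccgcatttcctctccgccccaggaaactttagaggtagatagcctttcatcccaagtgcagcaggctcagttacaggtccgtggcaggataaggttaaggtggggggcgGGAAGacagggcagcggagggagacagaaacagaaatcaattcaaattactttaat
Start 2, chr3:65108764-65109013: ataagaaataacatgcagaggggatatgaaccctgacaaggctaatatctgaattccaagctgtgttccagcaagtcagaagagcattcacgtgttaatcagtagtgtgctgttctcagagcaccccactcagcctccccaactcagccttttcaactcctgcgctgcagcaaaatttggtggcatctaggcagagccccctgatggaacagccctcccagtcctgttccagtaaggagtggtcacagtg
Start 3, chr3:65187853-65188102: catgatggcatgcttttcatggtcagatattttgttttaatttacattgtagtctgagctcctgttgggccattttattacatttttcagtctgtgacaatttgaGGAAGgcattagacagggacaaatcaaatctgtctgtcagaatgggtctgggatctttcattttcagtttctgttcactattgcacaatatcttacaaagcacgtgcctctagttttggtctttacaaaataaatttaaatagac

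Windows 1 and 3 each held 1 Ets core and window 2 held 0, on either strand. Among all 32851 promoter windows of this length, 64.1% held at least 1. The AP-1 sequence TGANTCA, which reads the same on both strands apart from its middle base, was in 6.75% of all windows and in 0 of these 3.

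Outside the comparison, Kcnab1 was low almost everywhere. Across the 105 arrays other than HrasKO spindle and mixed carcinomas its median was 5.15, and the highest of the 75 WT arrays of any tissue was 6.64, a papilloma. The 2 HrasKO carcinomas labelled mixed, from mice 1616 and 1706 that are not in the comparison, were at 8.51 and 6.44, and the single WT mixed carcinoma was at 5.44. HrasKO papillomas were at 4.90 to 5.92 (8 arrays), against 4.65 to 6.64 in WT papillomas (19 arrays). HrasKO skin was at 5.08 to 5.49 (6 arrays), against 4.61 to 6.56 in WT skin (9 arrays). In both tissues the HrasKO arrays lay within the range of the WT arrays.

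The HrasKO papillomas included mice 1407, 1509 and 1664, whose own spindle carcinomas were the high ones. In a fit of both tissues, the genotype difference in spindle carcinoma minus that in papilloma was 3 (SE 0.400) for Kcnab1, with an adjusted p of 0.006 from limma. It was the only gene of 18772 (0.00533%) to pass that test, while 1548 (8.25%) had an unadjusted p under 0.05. The SE and p of this fit pool the spread of both tissues, with WT mouse 1949 included. They do not measure the spread among HrasKO spindle carcinomas alone. HrasKO spindle metastases were spread, from 4.57 to 8.00 in 10 arrays of 4 mice, and WT spindle metastases lay at 4.45 to 5.74 in 10 arrays of 3 mice. Of the 16 HrasKO metastasis arrays of any histology, 3 were above the highest WT array of the series, all from lymph nodes.

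**Figure D2:**
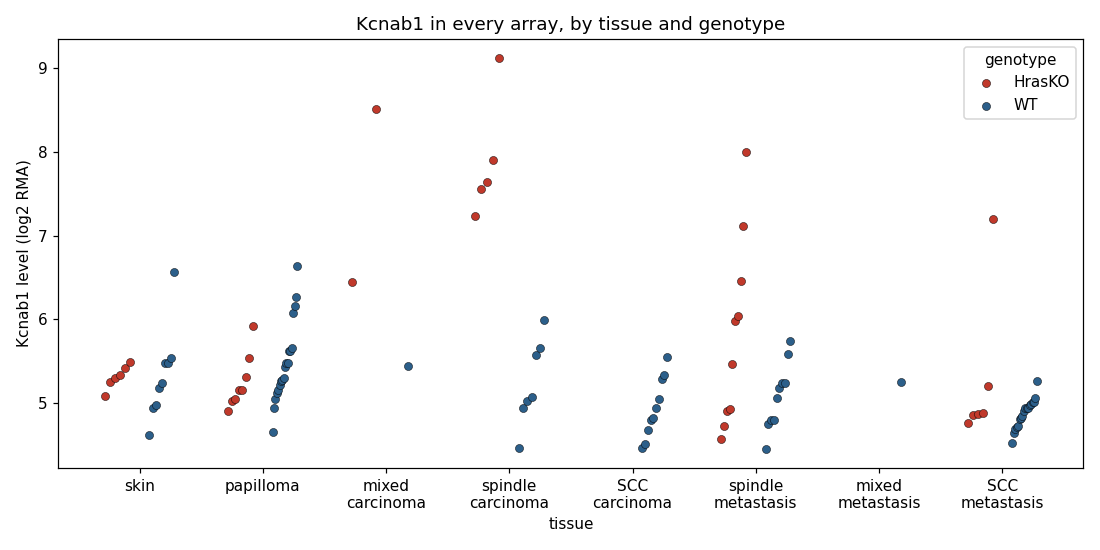
Kcnab1 level (log2 RMA, vertical axis) in every array of the series by tissue, HrasKO left of WT in each tissue, one point per array. The 5 HrasKO spindle carcinoma arrays lie between 7.23 and 9.12, and the WT arrays of all tissues lie at 6.64 or below.

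Lrrc56, on chromosome 7, was the second transcript whose arrays did not overlap and that the joint fit called. It encodes a leucine-rich repeat protein linked in humans to motile cilia, and it neighbours Hras. Its levels were 7.87, 7.56 and 7.40 in HrasKO mice 1407, 1509 and 1537, and 7.40 and 7.34 in 1664. WT arrays were at 6.47, 7.22 and 6.56, 5.78, 6.84, 6.14 and 6.19, in the order 1383, both arrays of 1508, 1815, 1949, 1984 and 2022. The mean was 7.61 ± 0.241 in HrasKO mice of batch 1 (SD, n = 3) and 6.39 ± 0.430 in WT mice (SD, n = 6), a log2 difference of 1.23 (SE 0.254).

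Lrrc56 levels were set beside those of the other tissues. It was at 6.42 to 6.78 in HrasKO skin and 5.50 to 6.14 in WT skin, and at 6.65 to 7.28 in HrasKO papillomas and 5.67 to 6.47 in WT papillomas, with no overlap between arrays in either tissue. In spindle metastases it was at 7 to 7.91 in HrasKO and 5.75 to 7.20 in WT arrays, which overlapped. The log2 difference was 0.80 (SE 0.0921) in skin, where it was the only gene of 18772 (0.00533%) called, with an adjusted p of 0.00896 from limma. It was 0.95 (SE 0.128) in papillomas, with an adjusted p of 0.0825, and 1.28 (SE 0.234) in spindle metastases, with an adjusted p of 0.999. These tissues came largely from the same mice and so are not independent of one another. Among 41 measured genes around the Hras locus, Lrrc56 was the only one whose HrasKO mice were all above the WT mice (0.597% of all genes). The list's median difference was -0.07. Its neighbour Irf7, the interferon regulatory factor, had a difference of -1.75 (SE 0.603) with overlapping mice.

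The remaining 10 of the 12 genes named as higher, none of which passed, were picked by the smallest unadjusted p. The rule asked for an average of 6 or more (log2) in the higher genotype alone. A gene could thus enter while low in WT, as S100b was at 4.83 to 5.13. Ret, the receptor tyrosine kinase for glial cell line-derived factors, was at 7.30, 6.57 and 6.88 in HrasKO mice 1407, 1509 and 1537, and at 6.93 and 5.30 in 1664. WT arrays of Ret lay between 5.36 and 6.09. Its difference was 1.31 (SE 0.195), with the arrays of mouse 1664 on both sides of the WT range.

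Mrps28, a protein of the mitochondrial ribosome, was at 8.17, 9.62 and 9.02 in HrasKO mice of batch 1 and at 8.18 and 9.01 in mouse 1664, against 7.34 to 7.91 in WT arrays. No HrasKO array reached down into the WT range, and the difference was 1.35 (SE 0.285). Lig4, the DNA ligase of non-homologous end joining, had a difference of 0.58 (SE 0.119), and its HrasKO arrays at 7.12 to 7.75 touched the highest WT array at 7.12.

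Cd82, a tetraspanin known as a metastasis suppressor, was at 11.42 to 11.72 in HrasKO mice of batch 1, 11.43 and 10.94 in mouse 1664, and 10.56 to 11.35 in WT arrays (difference 0.68, SE 0.142). Ppp2r5b, a regulatory subunit of protein phosphatase 2A, had a difference of 0.81 (SE 0.171), and Sema3b, a secreted semaphorin, one of 0.93 (SE 0.201). The arrays of mouse 1664 were far apart for Sema3b, at 8.57 and 5.71, and the WT arrays at 5.91 to 7.07 lay between them. Zswim1, a zinc-finger protein, had a difference of 0.75 (SE 0.164).

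Siglec15, a sialic acid-binding receptor of osteoclasts and macrophages, was at 8.64, 7.52 and 7.40 in HrasKO mice of batch 1 and at 7.59 and 5.49 in mouse 1664. Its WT arrays lay between 5.52 and 6.72, and the difference was 1.58 (SE 0.314). S100b, a calcium-binding protein of Schwann cells and melanocytes, was high in 2 mice alone, with 7.16 in 1407 and 7.28 in 1509, against 5.37 in 1537, 5.20 and 4.98 in 1664, and 4.83 to 5.13 in WT arrays. Without mouse 1537 the difference of S100b was 2.26 with an adjusted p of 0.00258, the single gene called then (0.00533%). The list of nerve and Schwann cell markers that holds S100b had a median of 0.08 over 6 genes, and 0.21 without WT mouse 1949.

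F2rl3, the thrombin receptor PAR4, fell outside the rule for named genes and is given because the joint fit called it. It was at 7.98, 5.67 and 7.01 in HrasKO mice of batch 1 and at 5.34 and 5.18 in mouse 1664, against 4.67 to 5.62 in WT arrays. The joint fit put its difference at 1.5 (SE 0.295) with an adjusted p of 0.0235. Kcnc2, a pore-forming potassium channel subunit, was named for its arrays, which did not overlap: 5.58 to 6.58 in HrasKO and 4.39 to 5.06 in WT. Its joint-fit adjusted p was 0.0623.

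In total, arrays did not overlap for 42 genes with HrasKO higher (0.224%) and for 6 with HrasKO lower (0.032%). With 1 value per mouse the shares were 0.597% of genes with HrasKO higher and 0.144% (27 genes) with HrasKO lower, 0.74% together. Those 6 lower genes were Bcl2l15, Fcrl1, Rims3, Rplp1, Sprr2i and Zfp459, named after their values were seen. Their differences were -0.09 for the ribosomal protein gene Rplp1, -0.54 for Zfp459 and -1.15 for Sprr2i, whose level in WT mouse 1949 was 9.96.

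None of the 12 genes named as lower in HrasKO passed the test. Dusp1, a dual-specificity phosphatase that switches off MAP kinases, was at 9.85, 10.66 and 10.23 in HrasKO mice of batch 1 and at 9.16 and 11.58 in mouse 1664. WT arrays of Dusp1 were at 10.73 to 12.02. The mean was 10.25 ± 0.407 in HrasKO mice of batch 1 (SD, n = 3) and 11.42 ± 0.523 in WT mice (SD, n = 6), a difference of -1.17 (SE 0.318). Taken per mouse, all 4 HrasKO values were below all 6 WT values, as for 0.144% of all genes.

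Btg2, an anti-proliferative gene induced by p53 and by growth signals, had a like pattern, in which HrasKO mice of batch 1 were at 7.24, 7.68 and 7.62, mouse 1664 at 7.38 and 8.81, and WT arrays at 7.80 to 9.67 (difference -1.17, SE 0.297). Nfil3, a basic leucine zipper repressor, had a difference of -0.90 (SE 0.194). Ccl3, a macrophage chemokine, had one of -1.63 (SE 0.408). In each of these 4 genes the second array of mouse 1664 lay inside the WT range. Immediate early genes outside the rule, given for comparison, lay on both sides of 0, each within 2 standard errors: Fos had -0.69 (SE 0.399), Fosb -0.23 (SE 0.379), Jun 0.21 (SE 0.138) and Egr1 0.03 (SE 0.467).

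Adam12, a membrane metalloprotease, was at 7.22 to 7.72 in HrasKO mice of batch 1 but at 9.11 and 9.46 in mouse 1664, above all WT arrays at 7.98 to 8.87. Its difference of -0.91 (SE 0.195) became -0.45 without the batch covariate. Gpr176, an orphan receptor, showed the same split, at 5.89 to 6.24 in batch 1, 7.30 and 7.87 in mouse 1664 and 6.04 to 8.35 in WT arrays, and its difference of -0.87 (SE 0.220) became -0.49.

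Vgll3, a cofactor of TEAD transcription factors, had a difference of -1 (SE 0.248), the protease inhibitor Tfpi2 one of -1.33 (SE 0.365), the matrix proteoglycan agrin gene Agrn one of -0.91 (SE 0.249), the transporter gene Slc16a9 one of -0.90 (SE 0.243) and Lurap1l one of -0.96 (SE 0.265). Lilr4b, an immune receptor with a near-identical neighbour whose probes may share signal, had -0.79 (SE 0.177). Of these 6, none had mice that did not overlap between genotypes.

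**Figure D3:**
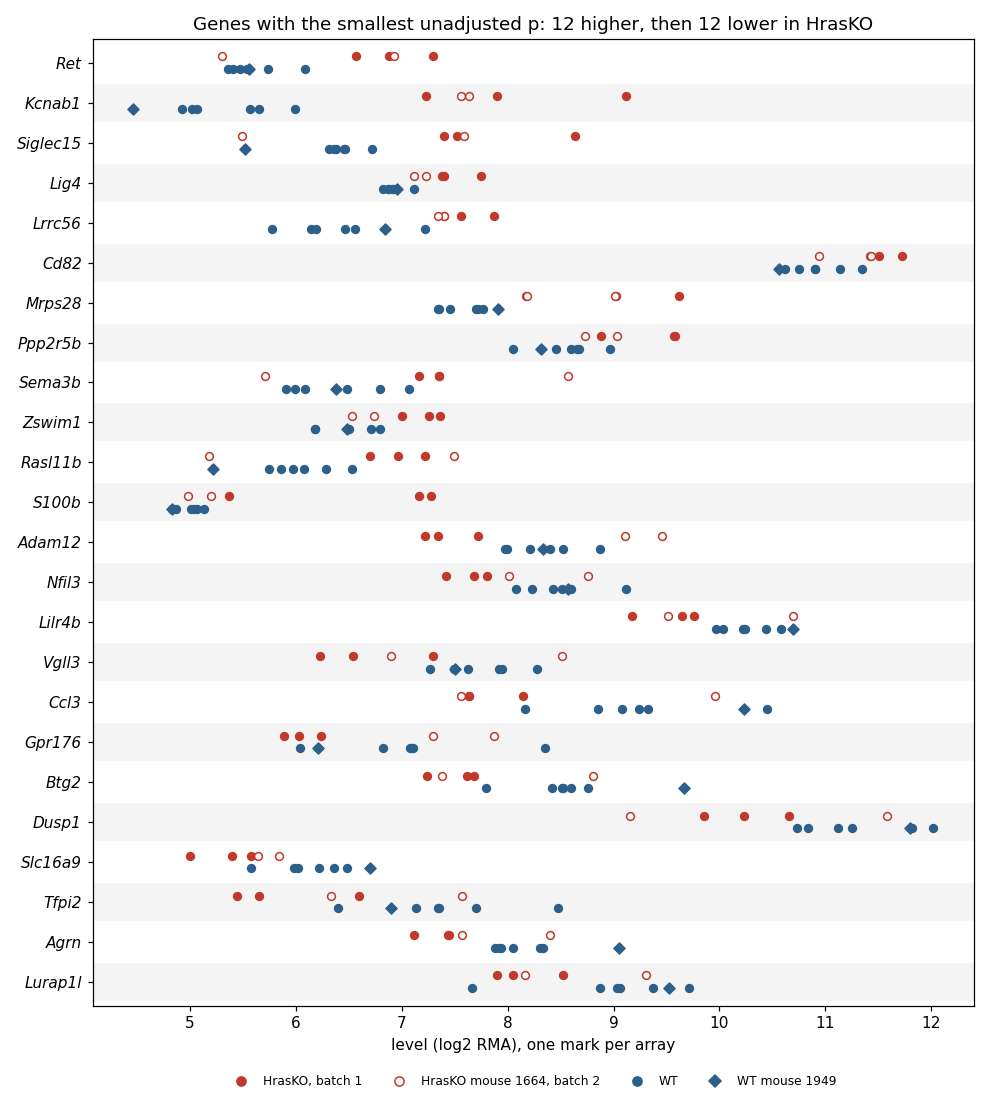
Levels (log2 RMA, horizontal axis) of the 12 genes named as higher and the 12 named as lower in HrasKO spindle carcinomas, one mark per array, HrasKO above WT in each row. Open circles are mouse 1664 and the diamond is WT mouse 1949; for Adam12 the open circles at 9.11 and 9.46 lie above every WT array while the other HrasKO arrays lie at 7.72 or below.

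The members of the Ras family that remain in the mutant were examined in full. Of 26 Ras family GTPases measured, 19 had a difference above 0, against 55.6% of all genes, and the median was 0.14, against 0.03 over all genes. Unadjusted p was under 0.05 for 3, all with HrasKO higher (2.65% of all genes), and none passed after adjustment. Leaving out WT mouse 1949 moved the list's median to 0.09.

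Nras, one of the classical Ras genes, was at 9.63, 9.64 and 9.78 in HrasKO mice of batch 1 and at 9.51 and 9.58 in mouse 1664. Its WT arrays were at 9.52, 9.37 and 9.05, 9.63, 9.32, 9.49 and 9.40, in the order given above. The genotypes overlapped, with a difference of 0.26 (SE 0.115). The R-Ras group, which signals to adhesion and growth, overlapped as well: Rras had 0.23 (SE 0.259), Rras2 0.20 (SE 0.149) and Mras 0.53 (SE 0.594). For Mras the WT array of mouse 1949 stood at 6.36 and the other 11 arrays at 8.48 to 9.60, and without it the difference was 0.08.

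The 3 with an unadjusted limma p under 0.05 were little-studied small GTPases. An exact permutation test over 4 HrasKO and 6 WT mice, without batch, gave a partly different set. Its unadjusted p was 0.00952 for Rasl11b, 0.019 for Rasl10a and 0.0286 for Nras, but 0.0857 for Rasd2. Rasl10a was at 7.14, 6.71 and 8.22 in HrasKO mice of batch 1 and at 6.94 and 6.00 in mouse 1664, against 6.47, 6.30 and 5.33, 6.19, 4.24, 4.88 and 5.13 in WT arrays. Its difference was 1.90 (SE 0.526), and 1.75 with an adjusted p of 0.0235 in the joint fit, a call that was lost without WT mouse 1949. Rasl11b was at 6.70 to 7.22 in batch 1 and at 5.18 and 7.49 in mouse 1664, against 5.22 to 6.53 in WT arrays (difference 1.08, SE 0.239). Rasd2, which is best known from striatal neurons, was at 9.31 in mouse 1407 and 6.40 in mouse 1509, while the other HrasKO arrays were at 4.53 in mouse 1537 and at 4.03 and 4.95 in mouse 1664, on both sides of the WT arrays at 4.37 to 4.90.

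Regulators and effectors of Ras and of related GTPases were taken by their role. Among 25 exchange factors and adaptors, which help to load Ras or the related Rap and Ral proteins with GTP, the median was 0.00. Of them, 1 was higher at an unadjusted p under 0.05 (2.65% of all genes), Rasgrp1 with 1.01 (SE 0.359). Among 18 GTPase-activating proteins and their partners, which switch off Ras or the related Rap proteins, 14 had a difference above 0, against 55.6% of all genes. None was at an unadjusted p under 0.05. The median was 0.26, and 0.14 without WT mouse 1949. The mean over these genes was 8.76 to 8.96 in HrasKO mice and 8.48 to 8.77 in WT mice. Nf1 had 0.14 (SE 0.306) and Rasa1 0.39 (SE 0.244). Among 17 genes of the Raf-MEK-ERK and neighbouring kinase cascades the median was -0.03, again with none at an unadjusted p under 0.05. Braf had -0.33 (SE 0.183), and its mice did not overlap, all HrasKO means being lower (0.144% of all genes). The 23 phosphoinositide 3-kinase, Akt and mTOR genes had a median of -0.01. Rptor at 0.51 (SE 0.208) and the regulatory subunit Pik3r2 at 0.31 (SE 0.132) were the 2 with an unadjusted p under 0.05, both higher (2.65% of all genes).

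The 26 ERK feedback genes and Ets targets, often read as a gauge of pathway output, had a median of 0.28 and 20 members above 0, against 55.6% of all genes. At an unadjusted p under 0.05, 3 were higher in HrasKO (2.65% of all genes) and 1, Dusp1, was lower (0.682% of all genes). Without WT mouse 1949, 5 were higher (2.92% of all genes) and 1 lower (1.1% of all genes). Spry1, a feedback inhibitor, was at 10.21, 10.59 and 10.45 in HrasKO mice of batch 1, against 8.86 to 9.94 in WT arrays, but mouse 1664 gave 8.11 and 11.25. Its difference was 0.84 (SE 0.226). Dusp9, another MAP kinase phosphatase, had 1.30 (SE 0.539). Hmga2, an architectural chromatin protein of embryonic and invasive tumour cells, was at 11.54, 11.54 and 11.58 in batch 1 and at 11.63 and 10.92 in mouse 1664, against 10.03 to 11.30 in WT arrays. All 4 HrasKO mice were above all 6 WT mice for Hmga2 (0.597% of all genes), with a difference of 0.72 (SE 0.239).

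Spry4, a further Sprouty gene of the list, had 1.03 (SE 0.461). Dusp6, Etv4, Etv5 and Spry2 lay within 2 standard errors of 0. Dusp6 had 0.29 (SE 0.201), Etv4 0.37 (SE 0.225), Etv5 0.18 (SE 0.169) and Spry2 -0.19 (SE 0.203). The mean level over the list was 8.85 to 9.38 in the 4 HrasKO mice and 8.93 to 9.51 in the 6 WT mice. Mouse 1664 was the lowest of the HrasKO mice, with its arrays at 9.23 and 8.46, while the other 3 lay between 9.37 and 9.38. In papillomas, which share mice with the carcinomas, the differences ran the other way for Dusp6 (-0.97), Etv4 (-0.80) and Hmga2 (-0.71), none of them called. The other members are not given for papillomas, so these genes do not describe the list there. In that tissue 959 genes (5.11%) had an unadjusted p under 0.05 in either direction.

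**Figure D4:**
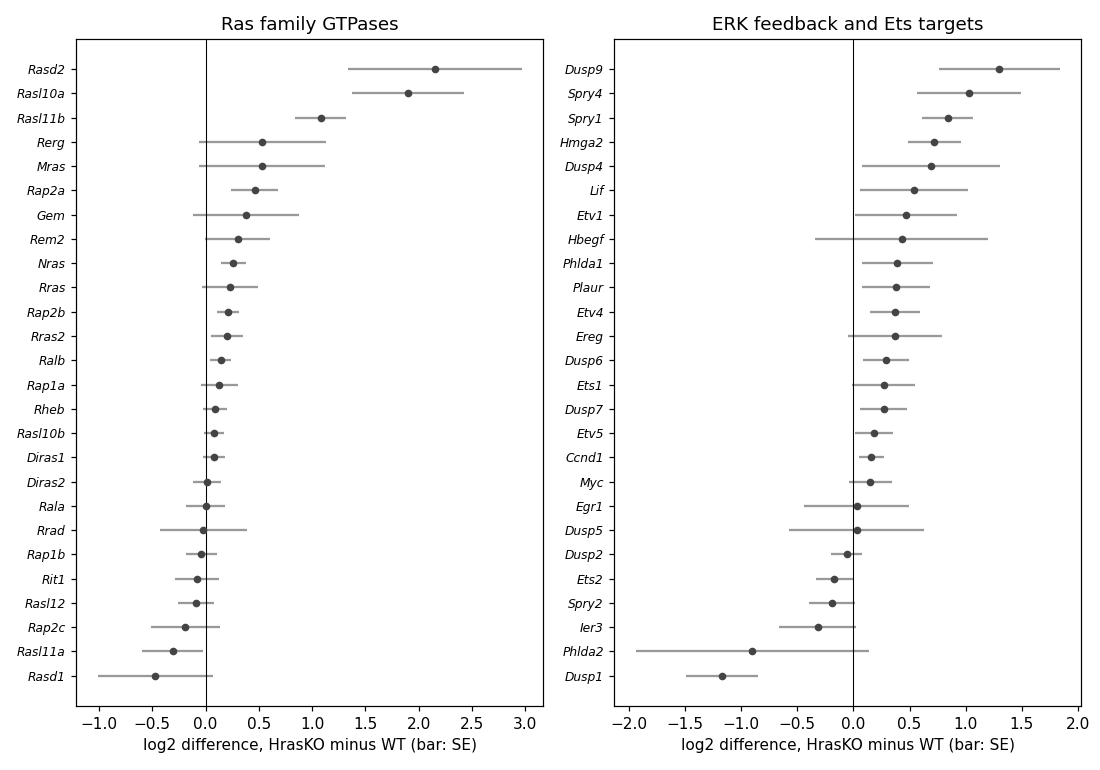
Log2 difference, HrasKO minus WT spindle carcinoma, for 26 Ras family GTPases (left) and 26 ERK feedback genes and Ets targets (right), with bars of 1 SE from limma. Rasd2 at 2.15, Rasl10a at 1.90 and Rasl11b at 1.08 lie far right among the GTPases, and Dusp1 at -1.17 far left among the ERK genes; none passed the test over all genes.

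Growth factor genes lay on both sides of 0. The 16 EGF receptor family members and ligands had a median of 0.03 (0.11 without WT mouse 1949), with Btc, the ligand betacellulin, at 1.14 (SE 0.359) and Egfr at -0.51 (SE 0.232). The 33 other growth factor receptors and ligands had a median of 0.13, with 0 at an unadjusted p under 0.05. Without WT mouse 1949 the median was 0.03 and 1 was higher at that mark (2.92% of all genes). Ntrk2, the receptor for brain-derived neurotrophic factor, had -1.56 (SE 0.772) and Igf2 -1.35 (SE 0.788), and both ranged widely within each genotype.

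All 23 cell cycle genes measured had a difference above 0, against 55.6% of all genes. Their median was 0.34, against 0.03 over all genes. Only Rrm2, a ribonucleotide reductase subunit, reached an unadjusted p under 0.05, with 0.47 (SE 0.192), while 2.65% of all genes were higher at that mark. E2f1 had 0.61 (SE 0.367), Mcm5 0.56 (SE 0.298) and Mki67 0.11 (SE 0.207). The mean over the list was 9.43 to 9.99 in HrasKO mice and 8.97 to 9.81 in WT mice, so the mice overlapped. The median was 0.27 without WT mouse 1949.

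Tumour suppressor and senescence genes had a median of -0.10 over 22 genes. Cdkn2a, which encodes p16 and p19Arf, was at 4.96 to 5.62 in all 5 HrasKO arrays. In WT it was at 5.05 to 5.35 in 5 arrays and at 8.87 and 8.73 in mice 1949 and 2022, so the genotypes overlapped and the difference of -1.08 (SE 0.967) rested on 2 WT mice. The neighbouring Cdkn2b had -0.73 (SE 1.03) and was at 8.80 in HrasKO mouse 1537 as well.

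For epithelial lists the WT array of mouse 1949 set the sign. The 31 epithelial adhesion genes had a median of -0.44 with it and 0.06 without it, the 22 epidermal keratins -0.27 and 0.23, the 10 basal keratinocyte markers -0.17 and 0.41, and the 25 transcription factors of the epithelial-mesenchymal transition -0.15 and 0.07. The mean over the adhesion genes was 6.40 to 7.27 in HrasKO mice, against 5.99 to 7.46 in the 5 other WT mice. Cornified envelope genes, markers of terminal differentiation, had a median of -0.97 over 31 genes with the array and -0.40 without it. WT mouse 2022 held some of them as well, such as the small proline-rich gene Sprr3 at 8.77, where all HrasKO arrays were at 3.79 to 4.33.

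Krt8, a keratin of simple epithelia, was at 11.41 to 12.74 in HrasKO arrays and at 11.07 to 12.68 in 5 WT arrays, with 9.09 in mouse 1949 and 6.30 in mouse 1984, and its difference was 2.10 (SE 1.26). Krt18, its usual partner, was at 8.40 to 11.80 in HrasKO and 8.37 to 10.70 in WT arrays. Krt19 was at 3.68 to 5.95 and Krt7 at 4.36 to 5.30 in HrasKO arrays. In WT arrays Krt19 reached 11.37 and Krt7 reached 11, both in mouse 1949. Lamb3, a laminin chain of the basement membrane, was at 10.77, 8.96 and 9.67 in batch 1 and at 6.20 and 6.68 in mouse 1664, against 4.77 to 10.31 in WT arrays. The only adhesion gene with an unadjusted p under 0.05 was the integrin gene Itga6, higher (2.65% of all genes) with 0.42 (SE 0.141).

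Among 31 mesenchymal and matrix genes the median was 0.17, and 0.02 without WT mouse 1949. Cdh11, a mesenchymal cadherin, was at 11.29, 11.17 and 11 in HrasKO mice of batch 1 and at 9.90 and 11.16 in mouse 1664. WT arrays of Cdh11 were at 10.46, 9.14 and 11.38, 10.21, 10.12, 9.26 and 10.37. By mouse mean all HrasKO values were above all WT values (0.597% of all genes), with a difference of 1.04 (SE 0.248). Col6a3 had 0.69 (SE 0.271) and the smooth muscle calponin gene Cnn1 -1.40 (SE 0.538). Col1a1, Postn and Vim had 0.18, 0.10 and 0.17, each within 1 standard error of 0.

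Matrix proteases and inhibitors had a median of 0.26 over 28 genes, and 0.05 without WT mouse 1949. Mmp1b had 1.29 (SE 0.379) and its near-identical paralogue Mmp1a 2.05 (SE 0.914), a pair whose probes may share signal. Cathepsin K, Ctsk, had 1.62 (SE 0.688). TGF-beta and activin genes had a median of 0.04 over 30 genes, with Bmp4 at 1.61 (SE 0.684). Wnt pathway genes had 0.19 over 31, with Axin2, a feedback target of the pathway, at 0.67 (SE 0.280) and the receptor Fzd1 at 0.85 (SE 0.293). Notch pathway genes had -0.18 over 19, with Maml2 at -0.44 (SE 0.152). Hypoxia and glycolysis genes had 0.00 over 23, and angiogenic factors 0.26 over 21 (0.07 without WT mouse 1949), with Angpt2, a vessel-destabilising ligand, at -0.98 (SE 0.287).

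Nrf2 and detoxification genes had a median of -0.38 over 21 genes, and -0.17 without WT mouse 1949. Gsta4, a glutathione transferase, was at 6.32 to 8.85 in HrasKO arrays, against 6.72 to 12.35 in WT arrays, with a difference of -2.21 (SE 1.08). Hmga2 and oncofetal genes had 0.06 over 19. Sox2, a stem cell factor, was at 7.13 to 9.20 in all 5 HrasKO arrays, whereas WT arrays ran from 4.27 in mouse 1815 to 9.70 in mouse 1949. The difference of Sox2 was 1.51 (SE 1.17) with that mouse and 2.21 without it.

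Immune genes varied widely between mice of one genotype. All 11 neutrophil markers had a difference below 0, whereas 55.6% of all genes were above 0. Their median was -1.14, yet 0 had an unadjusted p under 0.05. S100a8, a calprotectin subunit, was at 6.13, 8.43 and 7.76 in HrasKO mice of batch 1 and at 5.45 and 7.04 in mouse 1664, against 9.61, 10.67 and 11.43, 7.86, 11.38, 6.67 and 7.81 in WT arrays. The mean over the list was 5.80 to 7.32 in HrasKO mice and 5.72 to 9.86 in WT mice, so WT mouse 1984 lay below all HrasKO mice. The highest was WT mouse 1949, and without it the list's median was -0.91.

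Interferon-induced genes had a difference below 0 in 27 of 28, whereas 55.6% of all genes were above 0. Their median was -0.37, and -0.66 without WT mouse 1949. Lower at an unadjusted p under 0.05 (0.682% of all genes) were Irf7, Usp18 at -1.29 (SE 0.544) and Rsad2 at -1.09 (SE 0.405). Without WT mouse 1949, 9 of the 28 were lower at that threshold, against 1.1% of all genes. Irf7 was at 7.14, 9.05 and 7.38 in HrasKO mice of batch 1 and at 8.03 and 8.65 in mouse 1664. Its WT arrays were at 10.08, 9.81 and 9.39, 10.28, 9.88 and 10.04 in 5 mice and at 7.79 in mouse 1815. WT mouse 1815 thus lay within the HrasKO range. MHC and antigen processing genes had 0.04 over 17.

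Chemokines and cytokines had a median of 0.00 over 37 genes. Tslp, an epithelial cytokine of allergic inflammation, was at 10.33, 9.62 and 9.69 in HrasKO mice of batch 1 and at 9.70 and 6.91 in mouse 1664. WT arrays of Tslp were at 8.08, 7.73 and 7.77, 7.01, 4.91, 7.17 and 9.27. Its difference was 2.52 (SE 0.780), and the mice overlapped through 1664 and WT mouse 2022.

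Macrophage markers had a median of 0.21 over 14 genes, which was -0.12 without WT mouse 1949, and mast cell markers 0.07 and -0.25 over 11. T and NK cell markers had 0.00 over 14, and B and plasma cell markers -0.18 over 12. Langerhans and dendritic cell markers had 0.08 over 12, and 0.02 without WT mouse 1949. The second array of HrasKO mouse 1664 stood apart from its partner here, with a mast cell mean of 9.18, the highest of all 12 arrays, and a T and NK cell mean of 7.03, also the highest.

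Markers of stroma and skin appendages gave medians on either side of 0. Fibroblast markers had a median of 0.21 over 13 genes, and 0.04 without WT mouse 1949. Endothelial markers had -0.39 over 14, and pericyte and smooth muscle markers -0.43 over 10. Endothelial members split, since Cdh5 had 0.88 (SE 0.324) and Flt1 0.79 (SE 0.340) while 12 of the 14 were below 0. Of all genes, 55.6% were above 0. Skeletal muscle markers had 0.40 over 17, and 0.18 without WT mouse 1949. Adipocyte markers had 0.10 over 10 with Fabp4 at -2.11 (SE 0.624), melanocyte 0.05 over 9 and erythroid -0.09 over 3. Sebocyte markers had 0.63 over 10, and the median of 0.51 over 17 hair follicle markers came with a list mean of 6.46 in HrasKO mouse 1537, where the hair keratin gene Krt71 was at 9.72. What part these cells had in the differences above was not tested.

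**Figure D5:**
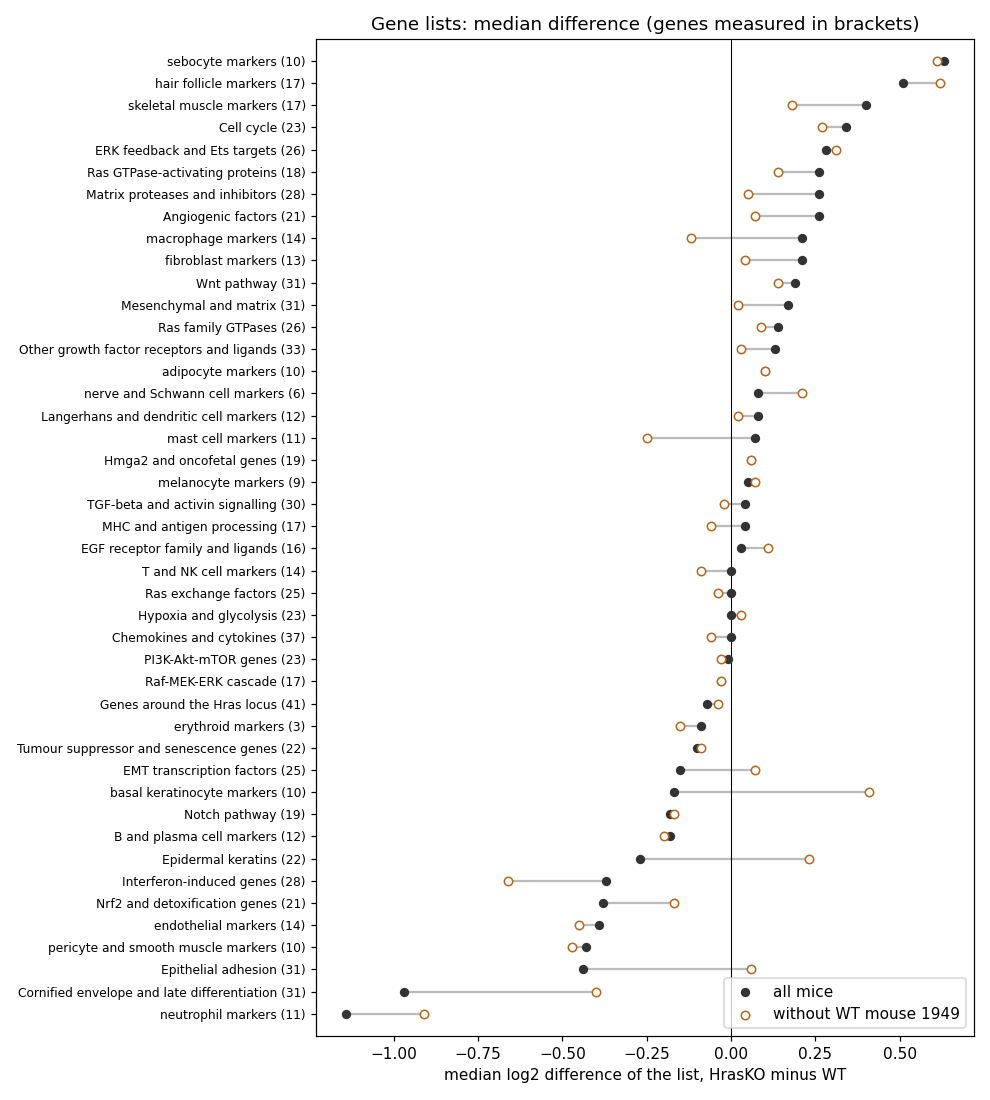
Median log2 difference, HrasKO minus WT spindle carcinoma, of 44 gene lists, with the number of measured genes in brackets; filled points use all mice and open points leave out WT mouse 1949. Epithelial adhesion lies at -0.44 with that mouse and 0.06 without it, and neutrophil markers at -1.14 and -0.91.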

How the data were processed

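Per the submitters' processing notes, the authors deposited log2 expression values made by RMA, which corrects background, normalizes between arrays and summarises probes. Over all probe sets, the medians of the 12 spindle carcinoma arrays lay between 5.89 and 6.18. Of 28204 probe sets, 21141 had 1 gene symbol in the platform annotation, 1881 had several and 5182 had none, and the last 2 kinds were left out. The probe set with the highest mean stood for each of 18772 genes. Values were averaged per mouse. The model, from limma 3.58.1 (two-sided, moderated by eBayes; R 4.3.3), had genotype and the batch label as terms, and its p-values were adjusted by Benjamini-Hochberg over all genes at a threshold of 0.05. The same model was run for papillomas, skin and spindle metastases, and an interaction with mouse as a random block compared spindle carcinoma with papilloma. The fit was tested on simulated data before use. Whether tumours of 1 mouse were separate primaries is not given in the sources used here. The number of mice limits the precision.

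Named genes were the 12 per direction with the smallest unadjusted p among those averaging 6 or more (log2) in whichever genotype was higher, without predicted, small RNA or receptor segment genes, the 2 most changed members of each list, and all Ras family members. None of the 44 lists (27 of pathways, 17 of cell markers) was tested as a set. The comparison, lists and rule were chosen with earlier results of these data known, and further genes are said to be named after their values were seen. Alternatives covered the batch term, the arrays and mice used, the probe set summary, a low-value filter, the variance model, normalization and 2 covariates. Tables and figures were made with Python 3.11.15, pandas 2.3.3 and matplotlib 3.10.9. Promoters came from RefSeq (GRCm38.p6).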

Additional observations from a re-analysis of the deposited data

Results flagged for a closer look

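The genotype difference of Kcnab1 was 3 (SE 0.400) larger on the log2 scale in spindle carcinoma than in papilloma (adjusted p = 0.006, limma), which was the one tested difference between tissues to pass. That SE pools both tissues and does not measure the spread among HrasKO spindle carcinomas alone.

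Within one genotype, single mice stood apart from the others of their group in 13 of 136 groups of 4 or 6 mice or gene lists checked with Dixon's test, a test that flags about 1 in 20 groups by chance. WT mouse 1949 accounted for most. Its list mean was 10.09 for epithelial adhesion, 8.87 for transcription factors of the epithelial-mesenchymal transition, 8.17 for the Notch pathway and 5.29 for hair follicle markers, each the highest of the WT mice. Its list mean was the lowest of the WT mice for Ras family GTPases (7.22) and for TGF-beta and activin signalling (8.26). Among single genes it stood apart for Siglec15 (5.52), Gpr176 (6.21) and Agrn (9.05), and WT mouse 1984 did for Ret (6.09).

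Among HrasKO mice, 1664 stood apart with the lowest mean of ERK feedback genes (8.85), 1509 with the highest mean of adipocyte markers (7.03) and 1537 with the highest mean of hair follicle markers (6.46).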

How the results depend on the processing

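No paired analysis was possible because HrasKO and WT carcinomas came from different mice. Of 23 alternatives, 21 planned and 2 chosen after seeing the data, 20 gave 0 calls, as the planned analysis did. Leaving out mouse 1664 was among these 20 but could not change any call, since the batch term already took up that mouse. The exceptions were genes higher in HrasKO: 4 in the joint fit over all groups, 3 in that fit without the WT array of mouse 1949, and 1 without HrasKO mouse 1537, so the range with 1 mouse left out was 0 to 1. Where all 18772 genes were tested, counts at an unadjusted p under 0.05 ran from 339 to 716 higher and 96 to 246 lower. The low-value filter left 9757 genes, of which 314 were higher and 80 lower. Kcnab1 and Lrrc56 passed in both joint fits and in no other alternative. S100b was the call without mouse 1537. No called value changed sign. Without WT mouse 1949, medians also crossed 0 for TGF-beta and activin genes (-0.02) and for MHC and antigen processing genes (-0.06), beside the lists named above. The joint fit takes the spread from all tissues; 3 batch-1 HrasKO mice and 6 WT mice limit the planned analysis. Genotype and batch cannot be told apart for mouse 1664.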

Other observations

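Some genes known from bone-resorbing osteoclasts are given here with their values. They were picked after those values were seen, so their direction and number support nothing, and none passed the test over all genes. The cell fusion genes Ocstamp and Dcstamp had 1.81 (SE 0.472) and 1.56 (SE 0.602), the receptor Oscar 2.21 (SE 0.478), the proton pump subunit Atp6v0d2 2.28 (SE 0.962), the integrin Itgb3 1.11 (SE 0.293), and the enzymes Ctsk, Acp5 and Mmp9 1.62 (SE 0.688), 1.13 (SE 0.633) and 1.64 (SE 0.982).

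Ocstamp was at 8.48, 8.60 and 7.98 in HrasKO mice 1407, 1509 and 1537 and at 9.25 and 6.92 in 1664, against 4.93 to 7.30 in WT arrays. Oscar was at 7.07, 7.26 and 5.60 in the same 3 mice, but at 3.50 and 3.65 in mouse 1664, below the WT arrays at 3.81 to 5.29. WT mouse 1815 was high for several, with Dcstamp at 7.61 and Ctsk at 10.63, inside or above the HrasKO range. The differences of Nfatc1 (0.60, SE 0.435) and Tnfrsf11a (0.60, SE 0.515), the factor and receptor that drive osteoclast formation, were smaller, and Calcr, the calcitonin receptor, was at 3.99 to 4.59 in HrasKO and 4.03 to 4.55 in WT arrays. Of the 14 macrophage markers, none had an unadjusted p under 0.05, with Msr1 at 1.15 (SE 0.589), Cd68 at 0.17 (SE 0.306) and C1qa at 0.19 (SE 0.639). Without WT mouse 1949, 1 of the 14 was higher at that threshold, against 2.92% of all genes. In other tissues, Ocstamp was at 5.50 to 7.01 in HrasKO and 5.43 to 7.99 in WT papillomas, and reached 9.39 in the WT mixed carcinoma.

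Pde3b, a phosphodiesterase of cyclic nucleotides, also separated the arrays, at 9.59 to 10.09 in HrasKO and 6.57 to 9.52 in WT. Its difference was 1.14 (SE 0.590), and 0.71 without WT mouse 1949.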
